A study of Mus musculus with 13 samples.

Results

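The 10 genes described here encode the subunits of the transcription factor NF-kB, proteins of the IkB family and the ubiquitin-editing inhibitor A20 (Tnfaip3). The subunit genes are Nfkb1, Nfkb2, Rel, Rela and Relb, and the 4 IkB family genes are Nfkbia, Nfkbie, Nfkbid and Nfkbiz. The 10 genes were taken by symbol from the deposited table of estimated counts, which lists 55774 gene entries. All 10 were found, and all 10 were among the 15781 genes that passed the filter on low counts. The study sequenced RNA in bulk from CD4+ T cells of female NOD mice (strain NOD/ShiLtJ) that carry the T cell receptor transgenes TcraBDC2.5 and TcrbBDC2.5 of the line 1Doi, so the cells of every group share 1 transgenic receptor that recognises an islet antigen. In the first group (STZ macrophages, n = 5), naive cells from the spleen were cultured for 96 h with macrophages enriched by beads from pancreatic islets of NOD mice given 1 low dose of streptozotocin, a toxin of beta cells, at 4 weeks of age. In the second group (control macrophages, n = 4), the islet macrophages came from NOD mice given buffer in its place. Islets were taken 10 days after the injection, at 5.5 weeks. In the third group (cells alone, n = 4), the T cells had no macrophages, and the labels call them untreated without saying whether they were cultured. Cells were sorted after co-culture as live, CD45+, Thy1.2+ and CD4+. The labels call the libraries biological replicates. They do not say how many donors gave the macrophages of a culture.

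NF-kB proteins bind DNA as pairs of subunits. In resting T cells, inhibitors of the IkB family, above all IkB-alpha (Nfkbia), hold most of the RELA and REL pairs in the cytoplasm. Stimulation of the T cell receptor with CD28 works through the kinase PKC-theta and the proteins BCL10 and MALT1 to activate the IKK kinases, which mark IkB proteins for destruction. The freed subunits enter the nucleus, and among the genes they induce are their own inhibitors, so that mRNAs of Nfkbia, Nfkbie, Tnfaip3, Nfkb2 and Relb are commonly read as feedback products of the pathway.

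Matches to the kappaB motif, the site that NF-kB pairs bind, were looked for in the promoters of these genes, since Nfkb2, Nfkbia, Nfkbid and Tnfaip3 had the 4 largest differences between day-1 co-cultures with STZ and with control macrophages described further on. RefSeq promoters of GRCm38.p6, 250 bases before to 50 bases after a start, were matched for 7 of the 10 genes and gave 12 promoters of 300 bases. No entry was matched for Nfkb1, Relb and Nfkbiz. The kappaB consensus of 10 letters was searched on both strands, and matches may overlap. It occurred in 4.51% of all 32851 promoters of the same length. Of the 12 promoters, 8 held at least 1 match. Nfkb2 promoters 2 and 3 overlap and share 1 match, which is the only match in promoter 3. That site is counted in 2 of the 8 promoters, so these 2 are not independent. The first base of the Nfkbia match lay 29 bases before the start. The first Nfkb2 promoter held 3 matches, of which 2 overlap, beginning 39, 38 and 11 bases before the start. The second Nfkbid promoter held 2 and the first Tnfaip3 promoter held 2. The Rel promoter held 2 overlapping matches and the Nfkbie promoter held 1. The Rela promoter held 0 and is shown beside the others as the most abundant subunit. In GENCODE vM21 (GRCm38) Nfkb2 lies at chr19:46304320-46312385 and Rela at chr19:5637483-5648130, both on the plus strand, as is Nfkbid at chr7:30421732-30428746. Nfkbia lies at chr12:55489410-55492647 and Tnfaip3 at chr10:19000910-19015657, both on the minus strand. A match is a description of letters and shows no binding. Matched bases are in capitals below, and each sequence reads 5′ to 3′ along the gene's strand of the reference mouse, not of NOD.
Nfkb2 first promoter chr19:46304487-46304786 (plus strand): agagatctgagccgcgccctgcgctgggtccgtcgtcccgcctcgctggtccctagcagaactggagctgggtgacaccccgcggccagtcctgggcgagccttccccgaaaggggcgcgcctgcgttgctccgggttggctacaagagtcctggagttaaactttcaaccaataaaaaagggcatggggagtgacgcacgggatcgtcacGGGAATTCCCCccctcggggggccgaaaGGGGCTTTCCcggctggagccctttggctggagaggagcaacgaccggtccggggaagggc
Nfkbia promoter chr12:55492598-55492897 (minus strand): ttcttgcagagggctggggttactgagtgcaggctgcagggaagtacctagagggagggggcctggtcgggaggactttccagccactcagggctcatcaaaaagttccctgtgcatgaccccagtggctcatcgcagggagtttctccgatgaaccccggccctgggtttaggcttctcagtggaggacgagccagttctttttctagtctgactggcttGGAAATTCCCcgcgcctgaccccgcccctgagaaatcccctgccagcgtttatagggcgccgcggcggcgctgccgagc
Nfkbid second promoter chr7:30422156-30422455 (plus strand): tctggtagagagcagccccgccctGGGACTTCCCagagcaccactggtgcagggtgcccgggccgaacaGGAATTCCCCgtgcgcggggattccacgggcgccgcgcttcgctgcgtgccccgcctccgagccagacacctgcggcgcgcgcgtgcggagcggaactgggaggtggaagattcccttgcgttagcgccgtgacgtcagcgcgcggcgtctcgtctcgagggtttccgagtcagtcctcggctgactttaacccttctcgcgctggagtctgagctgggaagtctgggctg
Tnfaip3 first promoter chr10:19015361-19015660 (minus strand): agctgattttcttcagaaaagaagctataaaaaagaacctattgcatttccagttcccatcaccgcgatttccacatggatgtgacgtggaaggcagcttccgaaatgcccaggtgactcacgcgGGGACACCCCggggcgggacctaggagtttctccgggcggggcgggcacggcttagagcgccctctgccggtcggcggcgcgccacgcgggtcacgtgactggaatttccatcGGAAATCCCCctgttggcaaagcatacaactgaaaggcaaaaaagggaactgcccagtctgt
Rela promoter chr19:5637291-5637590 (plus strand): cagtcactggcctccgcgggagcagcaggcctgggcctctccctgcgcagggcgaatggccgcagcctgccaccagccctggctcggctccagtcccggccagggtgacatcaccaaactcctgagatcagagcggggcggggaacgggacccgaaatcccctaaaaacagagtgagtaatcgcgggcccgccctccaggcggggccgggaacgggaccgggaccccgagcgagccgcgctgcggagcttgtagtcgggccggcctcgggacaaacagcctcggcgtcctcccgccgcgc

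Total estimated counts per library ran from 33398984 to 58827796 with STZ macrophages, from 30600523 to 61267763 with control macrophages and from 17312119 to 39775134 in cells alone. The labels give a batch, day 1 or day 2. Day 1 held STZ replicates 1 and 5, control replicates 1, 2 and 4 and all 4 libraries of cells alone, and day 2 held STZ replicates 2, 3 and 4 and control replicate 3. T cell markers were abundant in every library, with the 8 genes of the list summing to 5396 to 6925 CPM (counts scaled to the size of the library, corrected with TMM factors) with STZ macrophages, 7043 to 11192 CPM with control macrophages and 4352 to 8173 CPM in cells alone. The 18 macrophage markers summed to 34.2 to 162 CPM with STZ macrophages, 10.3 to 84.1 CPM with control macrophages and 3.22 to 17.7 CPM in cells alone. Of the 16 macrophage markers tested, 14 had a positive log2 fold change with STZ over control macrophages and 0 passed the test. The 6 islet endocrine markers summed to 0.686 to 153 CPM with STZ macrophages and to at most 1.70 CPM with control macrophages. The 6 B cell markers summed to 5.64 to 21.5 CPM in cells alone. They were at 0.617 to 1.71 CPM with control and 0.582 to 2.33 CPM with STZ macrophages. The 4 dendritic cell markers summed to 1.38 to 9.39 CPM in cells alone. They were at 0.516 to 1.61 CPM with control and 0.665 to 1.59 CPM with STZ macrophages. The part that RNA of other cells plays in the values below was not tested. The libraries of cells alone stood apart from each other. Replicate 2, and for some genes replicate 1, had several times the level of replicates 3 and 4 for Nfkbia, Nfkbid and Tnfaip3.

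Per kb of exon, Rela mRNA was the most abundant of the 5 subunits in all 13 libraries. Lengths were the merged exons of each gene, 12.061 kb for Nfkb1 and 3.045 kb for Nfkbie. Lengths of single transcripts were not tried, and the order between genes may differ with them. Its level was 30.6 ± 3.75 CPM per kb with STZ macrophages (SD, n = 5), 32.4 ± 4.82 with control macrophages and 71.3 ± 19.8 in cells alone (SD, n = 4 each). Within STZ co-cultures, the Rela range of 26.4 to 36.2 CPM per kb lay above the Nfkbie range of 9.45 to 15.4, which lay above the Nfkb1 range of 5.09 to 8.36. The Nfkb1 range in turn lay above the Rel range of 2.36 to 2.87. Tnfaip3, at 2.14 to 3.36 CPM per kb, did not separate from Rel, and Nfkbiz, at 0.975 to 2.78, did not separate from Tnfaip3. Relb was lowest, at 0.196 to 0.536 CPM per kb. Nfkbia, at 5.38 to 60.6 CPM per kb, Nfkb2, at 0.553 to 11.005, and Nfkbid, at 0.854 to 6.10, spanned ranges too wide to be given a place in this order. With control macrophages Nfkbia had a narrower range, 5.80 to 26.0 CPM per kb.

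**Figure D1:**
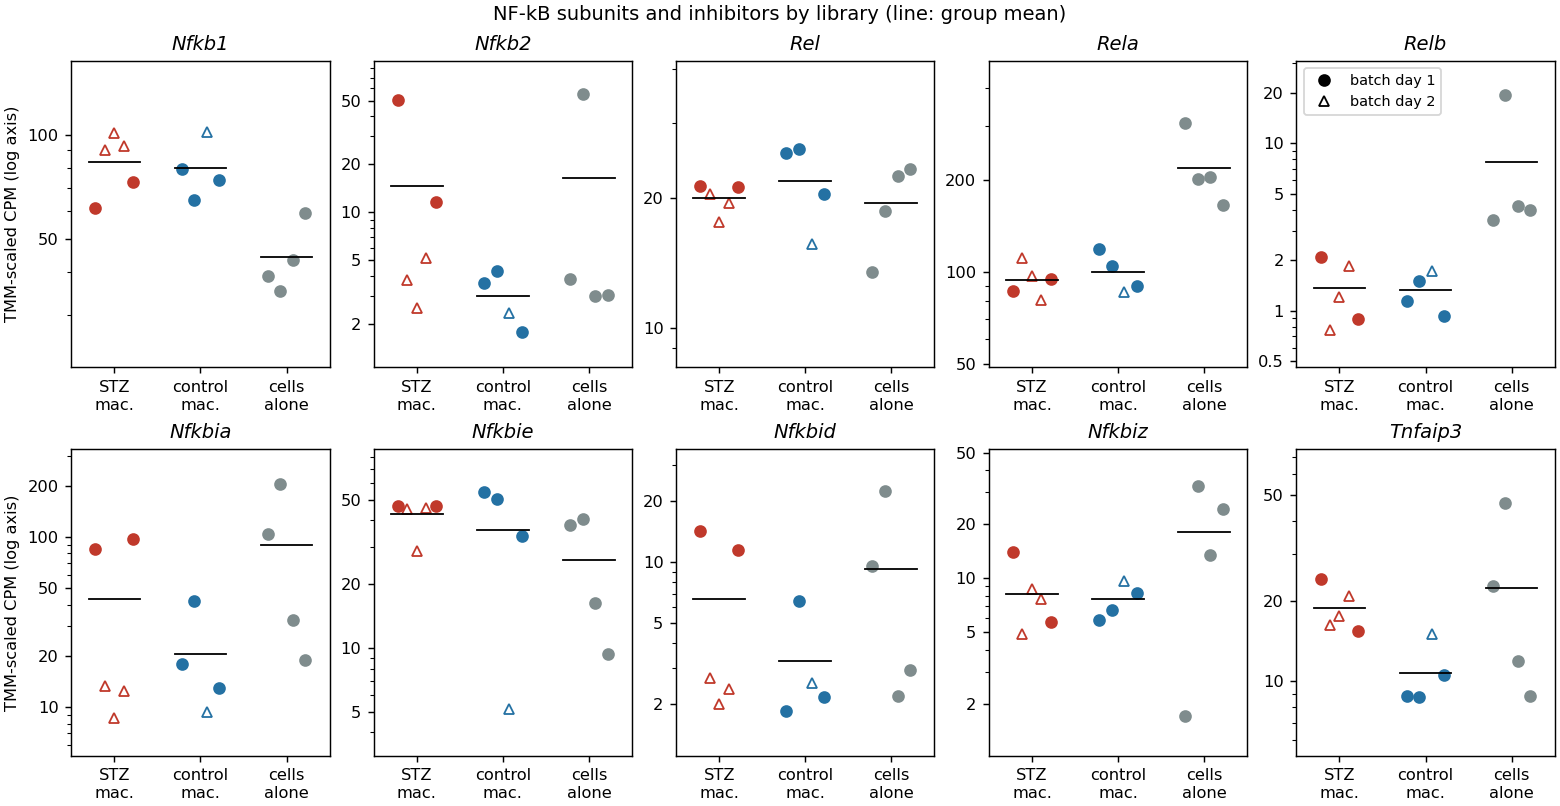
TMM-scaled CPM (log axis, 1 panel per gene) of the 10 genes in each library of T cells with STZ macrophages (n = 5), with control macrophages (n = 4) and alone (n = 4). Filled circles are batch day 1, open triangles are batch day 2 and lines are group means. Tnfaip3 is higher in all 5 STZ libraries (15.5 to 24.2 CPM) than in all 4 control libraries (8.77 to 15.01 CPM), and Nfkbia, Nfkbid and Nfkb2 are high in the 2 day-1 STZ libraries.

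The main question of the design was whether macrophages from islets after limited streptozotocin injury leave T cells in another state than macrophages from islets of buffer-treated mice. For the NF-kB genes the largest differences were in Nfkb2, Nfkbia, Nfkbid, Nfkbie and Tnfaip3, all of them higher on average with STZ macrophages. None passed the test across all genes. The subunits Rela, Nfkb1, Rel and Relb had log2 fold changes between -0.11 and 0.02. With edgeR's quasi-likelihood test and Benjamini-Hochberg adjustment over 15781 genes, 0 of the 10 genes were called at an adjusted p below 0.05, and 1 of them, Nfkb2, had an unadjusted p below 0.05, beside 3604 of all genes (22.8%). DESeq2 on the same counts and limma on the authors' adjusted table each called 0 of the 10. In all, 24 genes (0.152%) were called higher and 27 (0.171%) lower with STZ macrophages; this split was 30 and 14 with RLE factors and 38 and 19 with library sizes alone. The log2 fold change was above 0 for 8 of the 10, beside 44.6% of all genes tested.

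Tnfaip3 encodes A20, which trims ubiquitin chains that carry the signal from receptors to IKK. It was at 24.2, 16.3, 17.6, 20.9 and 15.5 CPM in STZ replicates 1 to 5, against 8.78, 8.77, 15.01 and 10.5 CPM in control replicates 1 to 4. Every STZ library lay above every control library, and the closest pair was STZ replicate 5 and the day-2 control library. This was 1 of the 10 genes whose 2 groups did not overlap, beside 7.55% of all genes. STZ over control macrophages gave a log2 fold change of 0.77 with SE 0.44 (edgeR adjusted p = 0.296).

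Nfkbia encodes IkB-alpha, the inhibitor that is destroyed and made anew in each round of signalling. Its level was 84.4, 13.4, 8.66, 12.5 and 97.6 CPM in STZ replicates 1 to 5, against 17.9, 41.9, 9.34 and 12.95 CPM in control replicates 1 to 4. STZ replicates 1 and 5 were high and the other 3 lay within or just below the control range. The log2 fold change was 1.26 with SE 0.63 (edgeR adjusted p = 0.246), a fold of 2.39.

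Nfkb2 encodes p100, the precursor of p52 and itself an inhibitor that retains RELB. It was at 50.4, 3.77, 2.53, 5.17 and 11.6 CPM in STZ replicates 1 to 5, against 3.61, 4.27, 2.34 and 1.78 CPM in control replicates 1 to 4. Again STZ replicates 1 and 5 were high, and replicate 1 was more than 4 times replicate 5. Its log2 fold change was 2.21 with SE 0.97 (edgeR's unadjusted p = 0.0414 and adjusted p = 0.207). Leaving out STZ replicate 1 brought it to 1.29, and leaving out control replicate 3 brought it to 3.42. Nfkb2 shares 6.52% of its exon bases with Psd and 11.6% with AC114539.1, both on the opposite strand. Its deposited counts were not whole in 13 of 13 libraries, and since the library kit does not mark strand, reads of these genes cannot be told apart in the overlaps.

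Nfkbid encodes IkB-NS, a nuclear IkB that works with p50 at target genes. It was at 14.3, 2.70, 2.00, 2.37 and 11.6 CPM in STZ replicates 1 to 5, against 1.86, 6.45, 2.53 and 2.17 CPM in control replicates 1 to 4. The 2 high STZ libraries were the same as for Nfkbia, and the groups overlapped. Between the groups Nfkbid had a log2 fold change of 1.07 with SE 0.69 (edgeR adjusted p = 0.341).

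Nfkbie encodes IkB-epsilon, which holds RELA and REL pairs. It was at 46.9, 45.01, 28.8, 45.9 and 46.7 CPM in STZ replicates 1 to 5, against 54.2, 50.3, 5.18 and 33.7 CPM in control replicates 1 to 4. STZ libraries other than replicate 3 lay within 2 CPM of each other, and the low control value was the day-2 library. Nfkbie had a log2 fold change of 0.93 with SE 0.66 (edgeR adjusted p = 0.385). Without that control library, replicate 3, it was 0.17.

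The other 5 genes had ranges that overlapped widely between the co-cultures. Rela, the strong transactivating subunit, was at 81.0 to 111 CPM with STZ macrophages and at 86.0 to 118 CPM with control macrophages, and the 95% interval of the log2 fold change ran from -0.52 to 0.39. Nfkb1, the source of p50, was at 61.4 to 101 CPM with STZ macrophages and 64.8 to 102 CPM with control macrophages, with an interval from -0.51 to 0.29. Rel, the subunit that drives Il2 in activated T cells, was at 17.6 to 21.4 CPM with STZ macrophages and 15.7 to 26.0 CPM with control macrophages, with an interval from -0.51 to 0.53. In the fit of 13 libraries these 3 intervals leave room for a fall of up to about 0.5 log2 units. They leave room for a rise of up to 0.29 for Nfkb1, 0.39 for Rela and 0.53 for Rel. With a GC trend removed, a setting chosen after seeing the data, Rela was at -0.82. Relb, the partner of p52, was at 0.761 to 2.08 CPM with STZ macrophages and 0.923 to 1.73 CPM with control macrophages, with an interval from -1.24 to 1.28. Nfkbiz, which encodes the nuclear IkB protein IkB-zeta, was at 4.89 to 14.0 CPM with STZ macrophages and 5.85 to 9.68 CPM with control macrophages. Its interval ran from -1.21 to 1.45. For Relb and Nfkbiz a change of more than 1 log2 unit is inside the interval.

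The calls differed with which libraries of cells alone shared the fit. These settings also change the filter and the scaling, and the cause was not tested. With the 9 co-cultures fitted alone, edgeR called 2698 genes (10.1% of 14881 higher and 8.06% lower) and 3 of the 10 higher: Nfkb2 at log2 fold change 2.44 (adjusted p = 0.0358), Nfkbia at 1.45 (adjusted p = 0.0438) and Tnfaip3 at 0.96 (adjusted p = 0.0250). The same 3 genes were called, among 2615, when only replicates 3 and 4 of cells alone stayed in the fit, a choice made after seeing the data. A further term, the first principal component of the cells-alone libraries (64.4% of their variance) scored in every library, turned Nfkbia to -0.37, Nfkbid to -0.45, Nfkbie to -0.13 and Tnfaip3 to -0.28, and brought Nfkb2 to 0.10. STZ replicates 1 and 5 scored 51.96 and 39.02 on this component, against scores from -38.5 to -15.3 for the other STZ libraries and from -86.0 to 8.83 for the control libraries.

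**Figure D2:**
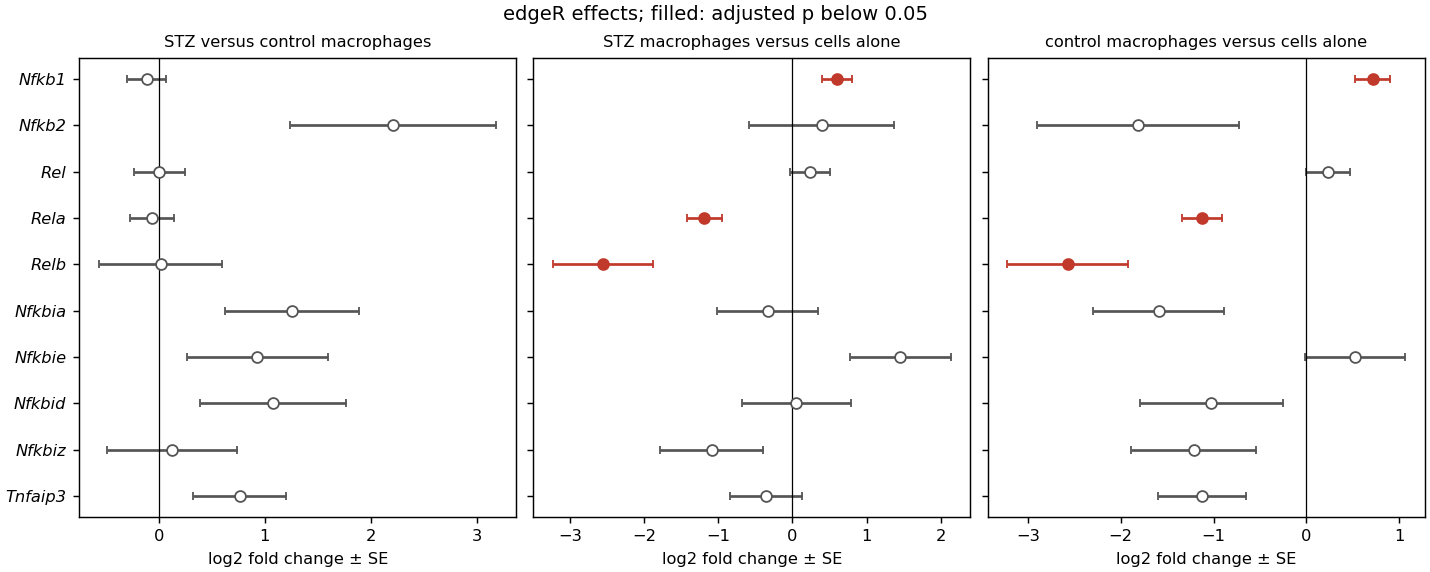
Log2 fold changes with SE bars (edgeR, 13 libraries) of the 10 genes, 1 panel for STZ versus control macrophages and 1 for each co-culture versus cells alone; filled points have an adjusted p below 0.05. No point is filled for STZ versus control macrophages, and Nfkb1, Rela and Relb are filled in both comparisons with cells alone.

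The contrast was also taken within each batch day. On day 1 the log2 fold change of STZ over control macrophages was 3.26 ± 1.21 for Nfkb2 (SE, adjusted p = 0.232), 1.91 ± 0.80 for Nfkbia (adjusted p = 0.277), 1.88 ± 0.86 for Nfkbid (adjusted p = 0.305) and 1.09 ± 0.57 for Tnfaip3 (adjusted p = 0.352), all in edgeR. On day 2, where 1 control library stands against 3 STZ libraries, it was 0.71 ± 1.58 for Nfkb2, 0.30 ± 1.04 for Nfkbia, -0.10 ± 1.10 for Nfkbid and 0.28 ± 0.74 for Tnfaip3. Among all genes edgeR called 0.171% higher and 0.0444% lower on day 1 and 0% on day 2. Of the 10 genes 0 were called on either day, with 3 at an unadjusted p below 0.05 on day 1 (beside 2573 of all 15781 genes) and 1 on day 2 (beside 2212).

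Nfkbie had its difference on the other day, with 0.02 ± 0.53 on day 1 and 2.94 ± 0.81 on day 2 (edgeR adjusted p = 0.159). The day-2 value rests on the single control library at 5.18 CPM, against 28.8 to 45.9 CPM in the 3 STZ libraries of that day. The difference of the 2 effects was 2.92 ± 0.93 (edgeR adjusted p = 0.316), and DESeq2 called it (adjusted p = 0.0347) along with the day-2 effect (adjusted p = 0.000711). Nfkbie was the 1 of the 10 that DESeq2 called for either, beside 2.52% of all genes (398) for the difference and 6.62% (1045) for day 2. DESeq2 called 0 of the 10 on day 1, beside 5.98% of all genes (944). Of all genes 0.00634% were called for this difference in edgeR. For Nfkb2, Nfkbia and Nfkbid, the adjusted p of the difference between days was 0.802, 0.852 and 0.774 in edgeR.

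Within the STZ co-cultures the day-2 libraries had less Nfkbia, at 8.66 to 13.4 CPM, against 84.4 and 97.6 CPM on day 1. The log2 fold change was -2.98 ± 0.81 (SE), and edgeR's adjusted p was 0.0784 while DESeq2's was 0.00252. Nfkbid was at 2.00 to 2.70 CPM on day 2, against 11.6 and 14.3 CPM on day 1, with a log2 fold change of -2.45 ± 0.87 (adjusted p = 0.141 in edgeR, 0.0285 in DESeq2). Those 2 were the members that DESeq2 called, beside 9.95% of all genes (1570). Nfkb2 gave -3.02 ± 1.20 (edgeR adjusted p = 0.177). Over all genes edgeR called 0.203% higher and 0.665% lower on day 2 than on day 1, and 0 of the 10, with 3 at an unadjusted p below 0.05 beside 3429 of all 15781 genes. On day 1 the macrophage markers summed to 34.2 and 38.6 CPM in these STZ libraries, and on day 2 to 44.4, 138 and 162 CPM. The islet endocrine markers summed to 0.686 and 0.693 CPM on day 1, and to 153, 3.24 and 114 CPM on day 2.

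**Figure D3:**
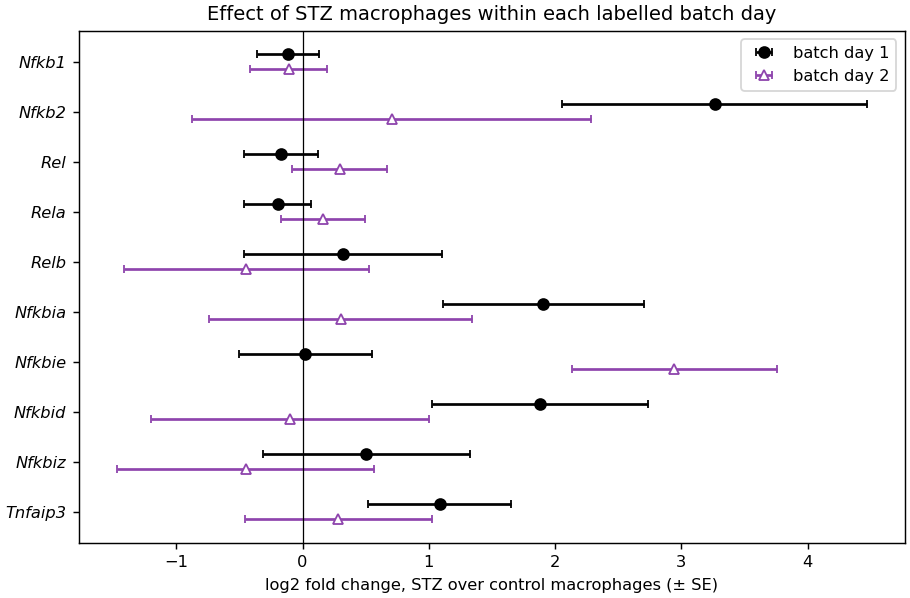
Log2 fold change of STZ over control macrophages with SE bars (edgeR) within batch day 1 (2 STZ and 3 control libraries, filled circles) and batch day 2 (3 STZ and 1 control library, open triangles) for the 10 genes. Nfkb2, Nfkbia and Nfkbid are above 1.8 on day 1 and below 0.8 on day 2, and Nfkbie is at 2.94 on day 2 and 0.02 on day 1.

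Set against cells alone, the libraries of both co-cultures had less Rela and Relb mRNA and more Nfkb1 mRNA. Rela was at 0.439 times its level in cells alone with STZ macrophages and at 0.458 times with control macrophages, Relb at 0.171 and 0.169 times, and Nfkb1 at 1.52 and 1.64 times. With STZ macrophages edgeR called 1 gene of the 10 higher and 2 lower, beside 20.8% and 22.3% of all genes. With control macrophages it likewise called 1 higher and 2 lower, beside 23.1% and 22% of all genes. The 2 comparisons share the 4 libraries of cells alone. The groups did not overlap for 3 of the 10 genes in either comparison, beside 39.6% of all genes with STZ macrophages and 39.8% with control macrophages. These shares of the 10 were not above those of all genes. In bulk RNA, a change in which cells were sorted and a change of RNA per cell cannot be told apart.

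Rela was at 86.7, 111, 96.6, 81.0 and 94.9 CPM in STZ replicates 1 to 5 and at 118, 104, 86.0 and 89.7 CPM in control replicates 1 to 4, against 306, 201, 204 and 165 CPM in cells alone. No co-culture library reached the lowest library of cells alone. Rela had a log2 fold change of -1.19 ± 0.24 with STZ macrophages (edgeR adjusted p = 0.00150) and -1.13 ± 0.21 with control macrophages (adjusted p = 0.000908).

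Relb was at 2.08, 0.761, 1.21, 1.85 and 0.886 CPM in STZ replicates 1 to 5 and at 1.14, 1.49, 1.73 and 0.923 CPM in control replicates 1 to 4, against 3.47, 19.3, 4.23 and 3.98 CPM in cells alone. All co-cultures lay below all cells alone, and 1 library of cells alone stood far above the other 3. Relb had a log2 fold change of -2.55 ± 0.68 with STZ macrophages (edgeR adjusted p = 0.00860) and -2.57 ± 0.65 with control macrophages (adjusted p = 0.00652). Without that library, replicate 2, the log2 fold changes were -1.35 with STZ macrophages and -1.57 with control macrophages (edgeR adjusted p = 0.0357 and 0.0162). With STZ macrophages the call was lost without control replicate 3 (log2 fold change -2.13, adjusted p = 0.0582). B cell marker sums were also lower in every co-culture library than in every library of cells alone. The part of other cells' RNA in the Relb difference was not tested.

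Nfkb1 was at 61.4, 90.1, 101, 92.5 and 72.7 CPM in STZ replicates 1 to 5 and at 79.5, 64.8, 102 and 73.7 CPM in control replicates 1 to 4, against 39.1, 35.4, 43.3 and 59.2 CPM in cells alone. Every co-culture library lay above every library of cells alone. Nfkb1 had a log2 fold change of 0.60 ± 0.21 with STZ macrophages (edgeR adjusted p = 0.0308) and 0.72 ± 0.19 with control macrophages (adjusted p = 0.00827). The call with STZ macrophages was lost without cells-alone replicate 1 or without STZ replicate 1, 3 or 5, with log2 fold changes of 0.56, 0.67, 0.59 and 0.52 and adjusted p from 0.0504 to 0.137 in edgeR.

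Of these 3 subunits, Rela kept its call in all 26 other settings in both comparisons. With STZ macrophages, Nfkb1 and Relb lost theirs when only those 2 groups were fitted (adjusted p = 0.0690 and 0.0786 in edgeR) and with a replicate block (adjusted p = 0.221 and 0.187). Relb also lost it with day 1 only (adjusted p = 0.0972) and in limma on the authors' adjusted table (adjusted p = 0.133). With control macrophages, Nfkb1 lost its call with library sizes alone and with only those 2 groups (adjusted p = 0.0595 and 0.0596 in edgeR), and Relb lost its call in limma on the adjusted table (adjusted p = 0.0652).

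The feedback genes were spread widely among the cells alone. In cells alone Nfkbia was at 104, 204, 32.5 and 18.9 CPM, Nfkbid at 9.54, 22.6, 2.19 and 2.95 CPM and Tnfaip3 at 22.7, 46.6, 11.9 and 8.77 CPM in replicates 1 to 4. Nfkb2 was at 3.80, 55.6, 2.97 and 3.04 CPM. Replicate 2 was the highest for all 4 genes.

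Against cells alone the log2 fold change of Nfkbia was -0.34 ± 0.68 with STZ macrophages and -1.59 ± 0.70 with control macrophages (adjusted p = 0.714 and 0.0826 in edgeR). That of Tnfaip3 was -0.36 ± 0.48 with STZ macrophages and -1.13 ± 0.47 with control macrophages (adjusted p = 0.574 and 0.0691). Without cells-alone replicate 4, both genes were called lower with control macrophages, Nfkbia at -1.92 (adjusted p = 0.0254) and Tnfaip3 at -1.39 (adjusted p = 0.0192). Tnfaip3 was also called there without cells-alone replicate 3, at -1.29 (adjusted p = 0.0433). Both genes were also called lower with control macrophages in DESeq2 (adjusted p = 0.0412 for Nfkbia and 0.0460 for Tnfaip3) and in edgeR with library sizes alone (adjusted p = 0.0446 and 0.0274). Tnfaip3 was called with a minimum mean of 3 log2 CPM (edgeR adjusted p = 0.0413), and Nfkbia in limma on the authors' adjusted table, at -3.97 (adjusted p = 9.8e-05). With day 1 as a group of its own, edgeR called Nfkbia lower in control co-cultures than in cells alone (-1.89, adjusted p = 0.0486), and the values for STZ co-cultures of that day gave 0.02 (adjusted p = 0.988).

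Nfkbie, at 38.0, 40.8, 16.3 and 9.39 CPM in cells alone, had a log2 fold change of 1.45 ± 0.68 with STZ macrophages and 0.52 ± 0.54 with control macrophages (adjusted p = 0.103 and 0.452 in edgeR). Without cells-alone replicate 2, Nfkbie and Nfkb2 were called higher with STZ macrophages, at 1.97 and 2.94 (adjusted p = 0.0415 and 0.00544). Nfkbiz ranged more widely in cells alone, at 1.72, 32.6, 13.5 and 24.2 CPM, and its log2 fold change was -1.09 ± 0.69 with STZ macrophages and -1.21 ± 0.67 with control macrophages (adjusted p = 0.224 and 0.161). Without cells-alone replicate 1, its low library, Nfkbiz was called lower in both, at -1.45 with STZ macrophages and -1.58 with control macrophages (adjusted p = 0.0168 and 0.00981). Rel, at 13.5, 18.7, 22.5 and 23.4 CPM in cells alone, and Nfkbid were not called in either comparison.

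With less Rela and more Nfkb1, the make-up of the subunit mRNAs differed between co-cultures and cells alone. Of the summed CPM per kb of the 5 subunits, Rela made up 70.0 ± 6.62% with STZ macrophages, 75.2 ± 3.06% with control macrophages and 85.4 ± 8.20% in cells alone (SD, n = 5, 4 and 4). Nfkb1 made up 16.0 ± 3.87%, 15.7 ± 4.12% and 4.73 ± 2.14% in the same order, and its lowest co-culture share, 10.7%, lay above its highest share in cells alone, 7.72%. Rel made up 6.16 ± 0.589%, 6.79 ± 1.08% and 3.38 ± 1.40%. Nfkb2 made up 6.99 ± 9.16% with STZ macrophages, 1.499 ± 0.471% with control macrophages and 4.12 ± 6.44% in cells alone, and it reached 23.1% in STZ replicate 1. Relb stayed at or below 5.65% in every library. All these shares rest on merged-exon lengths.

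**Figure D4:**
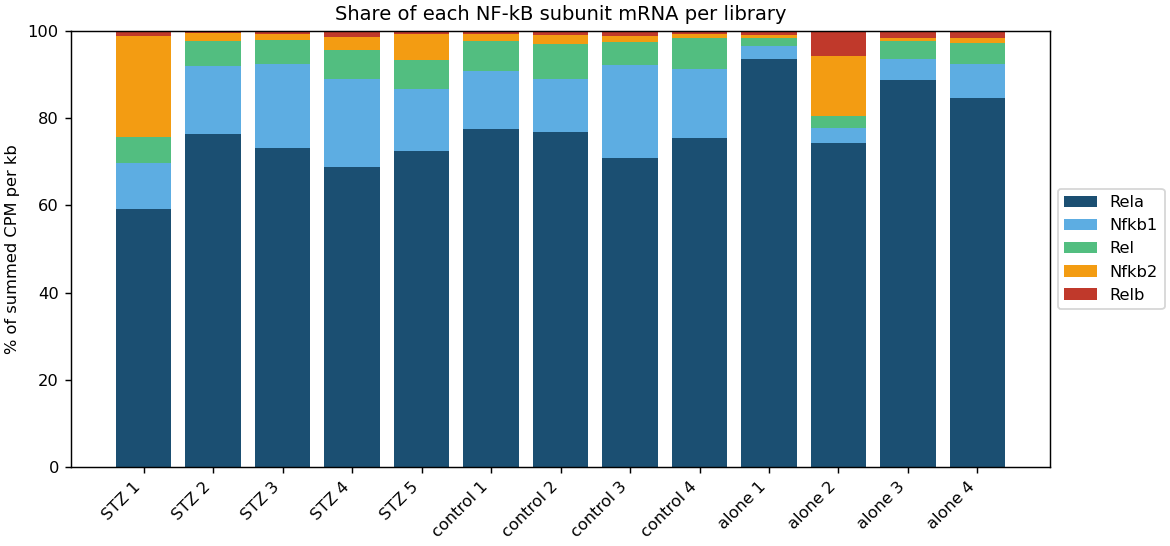
Stacked bars of the share of each of the 5 NF-kB subunit mRNAs in the summed CPM per kb of exon, 1 bar per library, for T cells with STZ macrophages (5 bars), with control macrophages (4) and alone (4). Rela is the largest share in every bar, Nfkb1 is between 10.7% and 21.4% in co-cultures and at most 7.72% in cells alone, and Nfkb2 reaches 23.1% in STZ replicate 1.

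Genes that carry the signal to NF-kB and genes it is known to drive were described from lists. Of 30 genes known as NF-kB targets in lymphocytes, 2 were called higher and 0 lower with STZ over control macrophages, beside 0.152% and 0.171% of all genes. The median log2 fold change of the targets was 0.05 beside -0.13 for all genes. At an unadjusted p below 0.05 in edgeR there were 9 targets, 5 higher and 4 lower. Beside them stood 3604 of all genes (22.8%), 1261 higher and 2343 lower. Ier3, a stress-induced gene that modulates cell survival, was at 23.6, 19.9, 17.3, 21.8 and 25.7 CPM in STZ replicates 1 to 5, against 5.20, 4.99, 4.10 and 4.65 CPM in control replicates 1 to 4. The groups were far apart, with a log2 fold change of 2.30 ± 0.27 (edgeR adjusted p = 0.00870). Ccl22, a chemokine that draws CCR4-bearing T cells and that dendritic cells and macrophages also make, was at 4.97, 21.3, 21.4, 30.6 and 3.82 CPM in STZ replicates 1 to 5, against 0.275, 0.410, 3.02 and 0.692 CPM in control replicates 1 to 4. Its log2 fold change was 3.16 ± 0.39 (edgeR adjusted p = 0.0199). Over 26 other settings Ier3 ran from 1.93 to 2.501 and kept its call in 20. Ccl22 ran from 3.01 to 3.90 over the 25 settings that tested it and kept its call in 14. Neither was called with the replicate block, with day 1 only, with the cells-alone component as a term, or without control replicate 4, STZ replicate 1 or STZ replicate 5. Ccl22 alone lost its call with no day term and without control replicate 1 or 2 or STZ replicate 2 or 4, and the minimum mean of 3 log2 CPM left it untested. Within each co-culture group, the libraries with most Ccl22 had the highest macrophage marker sums. These sums were 44.4 to 162 CPM in STZ replicates 2 to 4 and 84.1 CPM in control replicate 3. Between the groups this order did not hold. Control replicate 3 had less Ccl22 than STZ replicates 1 and 5, whose marker sums were 34.2 and 38.6 CPM. The part of macrophage RNA in the Ccl22 difference was not tested.

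With STZ over control macrophages, 0 of 16 genes of the upstream signalling list, 0 of 7 of the non-canonical list and 0 of 18 further inhibitors were called in edgeR, and DESeq2 called 0 in each. At an unadjusted p below 0.05 there were 2, 3 and 1, beside 22.8% of all genes, so the upstream list and the inhibitors were below that share and the non-canonical list, of 7 genes, above it. The smallest p-values of the upstream list belonged to Rnf31 and Rbck1, whose proteins form the linear ubiquitin ligase LUBAC, at log2 fold changes of 1.82 ± 0.67 and 2.00 ± 0.76 (edgeR adjusted p = 0.166 and 0.175), followed by the ubiquitin ligase Traf6 at 0.87. In the non-canonical list Birc2, Traf2 and Birc3, which together keep the kinase NIK unstable, had log2 fold changes of -0.73, -0.55 and -0.61 (edgeR adjusted p = 0.143, 0.161 and 0.166). Among the further inhibitors the A20 partner Tnip2 was at 1.77, Nlrc3 at -0.42 and the nuclear IkB protein Bcl3 at 1.02. With the 9 co-cultures fitted alone, edgeR called 2 upstream genes, 3 further inhibitors and 6 targets higher, and 1 non-canonical gene and 2 targets lower. In that fit 10.1% of all genes were called higher and 8.06% lower.

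Against cells alone, most of the known targets rose. With STZ macrophages 20 of 30 were called higher and 3 lower, beside 20.8% and 22.3% of all genes. The median log2 fold change was 2.31 beside -0.05 for all genes. With control macrophages 17 were called higher and 2 lower, beside 23.1% and 22% of all genes, with a median of 1.94 beside -0.13. Both medians were unchanged when genes without a count in cells alone were set at their lower bound. This could not have come out otherwise, since all these bounds lay above both medians. The lowest was 49.1-fold, for Ccl22 with control macrophages. Il2ra, the high-affinity chain of the interleukin 2 receptor, was at 2009 ± 538 CPM with STZ macrophages (SD, n = 5) and 2049 ± 902 CPM with control macrophages (SD, n = 4), and had 0 counts in all 4 libraries of cells alone. Taking 3 counts over that group (0.0224 CPM) as the floor, it was at least 89734-fold higher with STZ macrophages and at least 91562-fold higher with control macrophages. Csf2, the cytokine GM-CSF, was at 13.9 ± 10.6 CPM with STZ macrophages and 11.8 ± 5.21 CPM with control macrophages, at least 622-fold and 528-fold higher than this floor. Among the targets called lower, Cflar, an inhibitor of death receptor signalling, was at -1.28 with STZ macrophages and -1.08 with control macrophages. The homing receptor Ccr7 was called lower in both, at -0.91 with STZ macrophages and -0.49 with control macrophages. Cd40lg was called lower with STZ macrophages, at -1.30, and was at -0.60 with control macrophages (edgeR adjusted p = 0.0634).

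Of 16 genes upstream of NF-kB, 4 were called lower than in cells alone with STZ macrophages and 5 with control macrophages, beside 22.3% and 22% of all genes, which are near the shares of this list. None of the 16 was called higher, beside 20.8% and 23.1% of all genes. Malt1, which encodes a protease of T cell receptor signalling, was at 13.9 ± 0.628 CPM with STZ macrophages and 15.7 ± 1.12 CPM with control macrophages, against 62.6 ± 24.6 CPM in cells alone, with log2 fold changes of -2.20 and -2.004 (edgeR adjusted p = 0.000101 and 0.000106). Prkcq, which encodes PKC-theta, had log2 fold changes of -1.49 with STZ macrophages and -1.40 with control macrophages (edgeR adjusted p = 0.000186 and 0.000204). The IKK subunit gene Chuk had -1.22 with STZ macrophages and -1.51 with control macrophages (edgeR adjusted p = 0.0544 and 0.0213). In the non-canonical list, Birc2 (-0.89) and Birc3 (-0.64) were called lower with STZ macrophages, against -0.16 and -0.03 with control macrophages. The NIK gene Map3k14 was called lower with control macrophages (-2.10) and was at -1.65 with STZ macrophages (edgeR adjusted p = 0.0542). Of 18 further inhibitors, 2 were higher and 4 lower with STZ macrophages, and 3 were higher and 5 lower with control macrophages, again beside 20.8% higher and 22.3% lower of all genes with STZ macrophages and 23.1% higher and 22% lower with control macrophages. Bcl3 rose in both, at 3.45 with STZ macrophages and 2.43 with control macrophages. Commd1, which promotes the loss of RELA, also rose in both, at 2.11 and 2.36. Tnip3 was called higher with control macrophages, at 2.73, and was at 2.45 with STZ macrophages (edgeR adjusted p = 0.0573). The lowest with STZ macrophages were Nkiras1 (-1.67) and Itch (-1.22), also called lower with control macrophages (-1.22 and -0.79). With control macrophages the lowest were Tnip2 (-2.15) and Rnf11 (-1.47). With STZ macrophages Rnf11 was called lower (-1.15) and Tnip2 was not called (-0.37).

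Across the 9 co-cultures, log2 CPM of Nfkbia and Nfkbid had a Pearson r of 0.95, Nfkb2 and Nfkbid 0.86, and Nfkb2 and Nfkbia 0.82. These values describe 9 libraries that share 2 batch days, and 2 libraries, STZ replicates 1 and 5, are high for all 3 genes. Tnfaip3 had an r of 0.10 with Nfkbia, 0.29 with Nfkbid and 0.55 with Nfkb2. Nfkb1 ran against Nfkbia, with an r of -0.83. Among 8825 well-expressed genes, the gene most like Nfkbia was Cchcr1 (r = 0.997), that most like Nfkb2 was Gorasp2 (0.99), that most like Nfkbid was Tanc1 (0.99) and that most like Nfkbie was Mroh1 (0.997). For the subunits the most alike were Anxa4 for Nfkb1 (0.98), Cdc25b for Rel (0.97), Acbd4 for Rela (0.94) and Tiparp for Relb (0.84). For Nfkbiz and Tnfaip3 they were Srsf6 (0.97) and Prep (0.93).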

How the data were processed

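Per the labels' protocols, libraries were made from total RNA with the SMARTer Ultra Low kit, sequenced as read pairs and aligned to GRCm38. The submitters' processing notes name DESeq2, and no source used here names the tool that counted the reads. The authors deposited a table of estimated counts for 55774 gene entries, of which 11.0% of the values are not whole, and a table of adjusted log2 values, which was used for 1 alternative. Estimated counts were rounded, and 407 symbols are repeated in the table. Genes were filtered with filterByExpr, scaled with TMM and fitted with edgeR 4.0.16 (R 4.3.3; robust quasi-likelihood, group and batch day as terms, 13 libraries), with Benjamini-Hochberg adjustment over 15781 genes at 0.05; the SE is the log2 fold change divided by the root of F. CPM in the text are TMM-scaled, and levels per kb use merged exons of GENCODE vM21. DESeq2 1.42.0, limma 3.58.1 and other settings were alternatives. The scripts were tested on simulated data. P-values measure the spread between libraries. To look for pairing, the deviations of log2 CPM from the group mean were correlated over genes between libraries of different groups. By this measure control co-cultures and cells alone of the same replicate number had r from 0.311 to 0.575 in the 4 pairs. Cells-alone replicates 1 and 4 correlated more with control co-cultures of another number (r of 0.431 and 0.684). The labels state no pairing. Blocking on replicate number left 3 of the 10 genes called with control macrophages versus cells alone, beside 5887 of all genes. The 10 genes and all lists were chosen with earlier results of these data known. In each comparison all 10 genes are named. Of the other lists, those called (or the 3 with the smallest p) with STZ versus control macrophages and the 2 highest and 2 lowest called against cells alone are named, as is the gene most like each of the 10.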

Additional observations from a re-analysis of the deposited data

Results flagged for a closer look

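Dixon's criterion at the 95% level was applied to CPM in 30 groups of 4 or 5 libraries (10 genes in 3 groups). It sets the highest or lowest library against the others, and chance alone meets it in about 1 in 20 independent groups. CPM are not on a log scale and the 10 genes share the same libraries, so that rate need not hold here. The criterion was met in 5 groups. Nfkb2 was at 55.6 CPM in cells-alone replicate 2, against 2.97 to 3.80 CPM in the other 3 libraries, and at 50.4 CPM in STZ replicate 1, against 2.53 to 11.6 CPM in the other 4. Relb was at 19.3 CPM in cells-alone replicate 2, against 3.47 to 4.23 CPM in the others. Nfkbie was at 28.8 CPM in STZ replicate 3, against 45.01 to 46.9 CPM in the others. Nfkbid was at 6.45 CPM in control replicate 2, against 1.86 to 2.53 CPM in the others.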

How the results depend on the processing

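Of 774 member values recomputed under other settings, 657 kept their direction and their side of the threshold; 76 changed sign, 0 of them for a gene called in that comparison; 14 lost a call and 27 gained one. Below, values are log2 fold changes unless they count genes, and causes were not tested.

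For STZ versus control macrophages, 51 genes were called. The count was 19 with no day term, 2698 with 2 groups only, 0 with the replicate block, 7 with day 1 only, 1 with the cells-alone component as a term, 674 with DESeq2, 88 with limma on the authors' adjusted table, 28 with a GC trend removed and 2615 with cells-alone replicates 3 and 4 only (the last 2 settings were chosen after seeing the data). Of the 10 genes, 3 were called with 2 groups only and 3 with cells-alone replicates 3 and 4 only. For control macrophages versus cells alone the 10 gave 5 calls in DESeq2 and 6 in limma on the adjusted table, beside 7928 and 8647 of all genes. For STZ macrophages versus cells alone they gave 1 with 2 groups only, 1 with the replicate block and 8 with cells-alone replicates 3 and 4 only. Beside these stood 5085, 3476 and 9789 calls among all genes. A minimum mean of 3 log2 CPM, which tests fewer genes, left 4654 genes called with control macrophages and 4427 with STZ macrophages, and the replicate block left 3476 with STZ macrophages. DESeq2 called 398 genes for the difference of the STZ effect between days, against 1 in edgeR.

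Small effects changed sign with the scaling and with other settings, and larger effects did so with the cells-alone component as a term. Between STZ and control macrophages the median of all genes moved from -0.13 under TMM to -0.03 with RLE factors and 0.07 with library sizes alone. Nfkb1 became 0.089 with library sizes alone, 0.078 without a filter, 0.091 with the minimum mean, 0.062 with no day term, 0.071 with 2 groups only, 0.033 with day 1 only, 0.21 with the component, 0.0068 in the adjusted table, 0.055 with the GC trend removed and 0.072 with cells-alone replicates 3 and 4 only. Rela became 0.040 with RLE factors, 0.13 with library sizes alone, 0.13 without a filter, 0.14 with the minimum mean, 0.12 with 2 groups only, 0.040 in DESeq2, 0.087 in the adjusted table and 0.12 with cells-alone replicates 3 and 4 only. Rel became -0.13 with no day term and -0.022 with day 1 only. Relb became -1.00002 with the component and -0.47 with the GC trend removed. With the component, Nfkbia became -0.37, Nfkbie -0.13, Nfkbid -0.45, Tnfaip3 -0.28 and Nfkb2 0.10. Rela was at -0.82 with the GC trend removed. For the difference between days, Nfkb1 was at -0.013 in DESeq2.

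For control macrophages versus cells alone, Rel became -0.077 with library sizes alone, Nfkbie -2.52 and Nfkbiz 1.90 in the adjusted table, and Nfkb2 0.62, Nfkbia 0.21 and Nfkbid 0.83 with cells-alone replicates 3 and 4 only. For STZ macrophages versus cells alone, Nfkbid became -0.15 with library sizes alone, -0.50 with no day term, -0.18 with the replicate block, -0.63 with the component, -1.43 in the adjusted table and -0.14 with the GC trend removed. Nfkb2 became -0.15 with no day term and -0.27 with the component. Nfkbia became 0.10 with 2 groups only, 0.27 with day 1 only and 1.66 with cells-alone replicates 3 and 4 only. Tnfaip3 became 0.079 with day 1 only and 0.95 with cells-alone replicates 3 and 4 only. Nfkbie became -0.98 and Nfkbiz 2.03 in the adjusted table, and Nfkbiz 0.23 with the replicate block.

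Leaving out each replicate in turn gave 0 to 583 genes called for STZ versus control macrophages, with 0 without control replicate 4, STZ replicate 1 or STZ replicate 5 and 583 without cells-alone replicate 2. In that contrast it gave -0.18 to 0.072 for Nfkb1, -0.11 to 0.12 for Rela, -0.43 to 0.48 for Relb, -0.023 to 0.19 for Rel and -0.36 to 0.68 for Nfkbiz. It gave 0.17 (without control replicate 3) to 1.47 (without STZ replicate 5) for Nfkbie, 1.06 (without STZ replicate 5) to 2.04 (without control replicate 3) for Nfkbia, 0.81 (without control replicate 1) to 2.02 (without control replicate 3) for Nfkbid, 0.51 (without STZ replicate 1) to 1.25 (without control replicate 3) for Tnfaip3 and 1.29 (without STZ replicate 1) to 3.42 (without control replicate 3) for Nfkb2. For control macrophages versus cells alone it gave 3 to 5 of the 10 genes, beside 5745 to 7760 of all genes, and -2.226 to 0.52 for Nfkb2. For STZ macrophages versus cells alone it gave 2 to 5 of the 10 genes, beside 5137 to 8043 of all genes. The log2 fold changes there were -0.67 to 0.68 for Nfkbia, -0.705 to 0.49 for Tnfaip3, -0.30 to 1.20 for Nfkbid and -0.89 to 2.94 for Nfkb2.

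In deviations from the group mean, STZ co-cultures had r from -0.34 to 0.68 with control co-cultures of the same number. With cells alone r ran from -0.62 to 0.59. Both were negative for number 2. For these comparisons the block says only that the calls fell with it. Not every library correlated best with its own number. Relb, near 1 CPM in co-cultures, had the lowest levels of the 10, and intervals rest on 4 or 5 libraries a group.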
